A study of Mus musculus with 10 samples.

Results

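The C-type lectin (Clec) gene family was followed in inflamed mouse ear skin. Its members were all genes of the deposited expression table whose symbol starts with Clec and a number, 34 of 19703 genes. The samples were ears painted with MC903 (calcipotriol), a vitamin D analogue that causes a dermatitis with itch. In the antagonist group (n = 5) the mice were gavaged with GSK1562590, which blocks the urotensin II receptor (5 mg/kg, volume 100 µl), and in the vehicle group (n = 5) with vehicle alone. In both groups MC903 went on the left ear and ethanol on the right ear daily for 7 days and again on day 8, before the gavage, and ear skin was taken on day 13. Ears without MC903 were not analysed here, and the sources used here do not give strain, sex or age. The labels number the samples without saying that each came from its own mouse, so the p-values cover no more than the spread among the samples sequenced.

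C-type lectin receptors carry a fold first known for binding sugars with the help of calcium. On macrophages, neutrophils and dendritic cells many of them recognise microbial sugars or products of dead cells. The activating receptors signal through the kinase Syk and the adaptor Card9 to NF-κB, either by a tyrosine motif of their own or through the adaptor chains FcRγ (Fcer1g) and DAP12 (Tyrobp). The inhibitory ones recruit phosphatases. Other Clec proteins are ligands of natural killer receptors, endothelial and platelet surface proteins, or secreted proteins of the matrix and plasma, and Clec16a, an endosomal regulator of mitophagy, is no cell surface receptor.

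The libraries held 20183024 to 20606007 expected counts (estimated read counts), with 17320 to 17490 genes at 1 count or more. Keratinocyte markers summed to 21819 to 27194 TPM (relative transcript abundance, a level corrected for gene length) in antagonist ears and 20460 to 31452 TPM in vehicle ears. Tested with edgeR (quasi-likelihood, p adjusted after Benjamini and Hochberg over 15174 genes), 17.4% of all genes were lower and 16.7% higher in antagonist ears at an adjusted p under 0.05. Cartilage markers moved with the groups, with a mean log2 CPM (counts scaled to library size) of 2.35 to 4.21 in antagonist and 4.46 to 5.30 in vehicle libraries, and their part in the results below was not tested. With that cartilage score as a covariate no gene was called by edgeR, and 1649 genes had an unadjusted p under 0.05. The score did not overlap between the groups, so such a fit cannot tell the group from the score.

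Most of the measurable Clec genes were lower in antagonist ears and none was called higher. Of 34 members, 24 had enough counts to be tested, and 17 of these fell, 0 rose and 7 did not pass by edgeR. The background share was 17.4% for falls and 16.7% for rises. At least 2-fold falls numbered 11, against 3.93% of all tested genes. The median log2 fold change of the 24 was −0.80, against −0.00018 over all tested genes. In 12 of the 24 all antagonist libraries lay below all vehicle libraries in TPM, as did 9.9% of all tested genes, and in 0 of them all lay above, against 7.34%. The steepest falls were those of Clec3a, a lectin of cartilage (4.12 times lower), and Clec7a, the β-glucan receptor Dectin-1 (3.63 times lower). The cartilage score cannot be told apart from the group in this design, so fits with it are description only. With it as a covariate 0 members were called by edgeR, while all 17 kept their negative sign. With the covariate 9 of the 24 had an unadjusted p under 0.05 by edgeR, as did 1649 of all 15174 tested genes. With it the log2 fold change shrank by over 1.5 times in 7 of the 17, among them Clec11a (−0.41), Clec4a2 (−0.29), Clec4n (−0.69) and Clec3b (−0.72). It grew by over 1.5 times in Clec4d (−1.55) and Clec4e (−2.17), and was −2.04 for Clec7a.

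**Figure D1:**
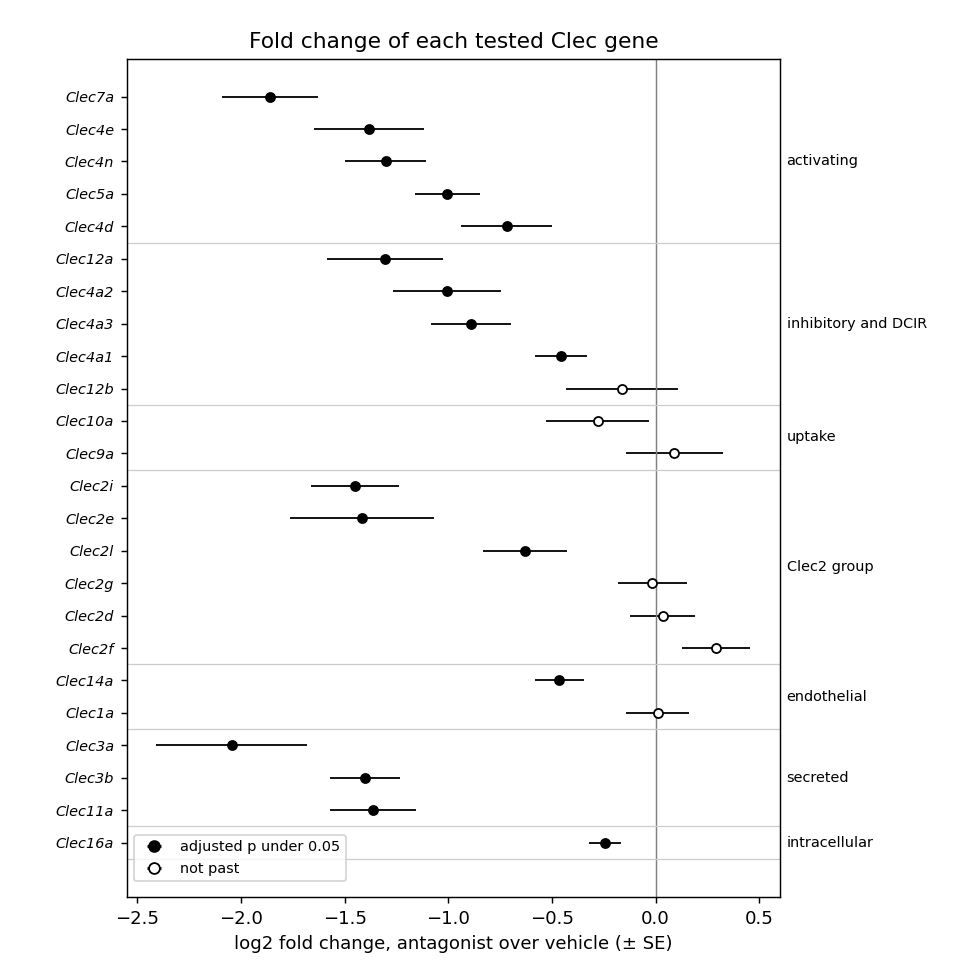
Log2 fold change of antagonist over vehicle for each of the 24 tested Clec genes, grouped by role, with bars for ± 1 SE and filled points for an adjusted p under 0.05 by edgeR. All 17 filled points lie left of 0, between −0.24 for Clec16a and −2.04 for Clec3a.

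The summed level of the 34 genes was 576 ± 91.1 TPM in antagonist ears and 955 ± 116 TPM in vehicle ears (SD, n = 5 each). The sums ran from 444 to 660 TPM in antagonist libraries and from 847 to 1143 TPM in vehicle libraries, and the groups did not overlap. Clec10a, a galactose-binding receptor of macrophages and dendritic cells, led the order of levels in both groups. Clec7a stood in place 8 by TPM in antagonist ears and in place 2 in vehicle ears. It made up 5.41 ± 1.47% of the family's TPM in antagonist and 12.03 ± 2.43% in vehicle libraries (SD, n = 5 each). The share of Clec2d, a ligand of inhibitory natural killer receptors, was 16.95 ± 4.22% in antagonist and 9.89 ± 1.30% in vehicle libraries. In TPM 12 members averaged over 10 in antagonist ears and 15 did in vehicle ears, while 13 in antagonist and 11 in vehicle ears averaged under 1. Whole ear RNA cannot tell fewer cells of a type from less RNA per cell.

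**Figure D2:**
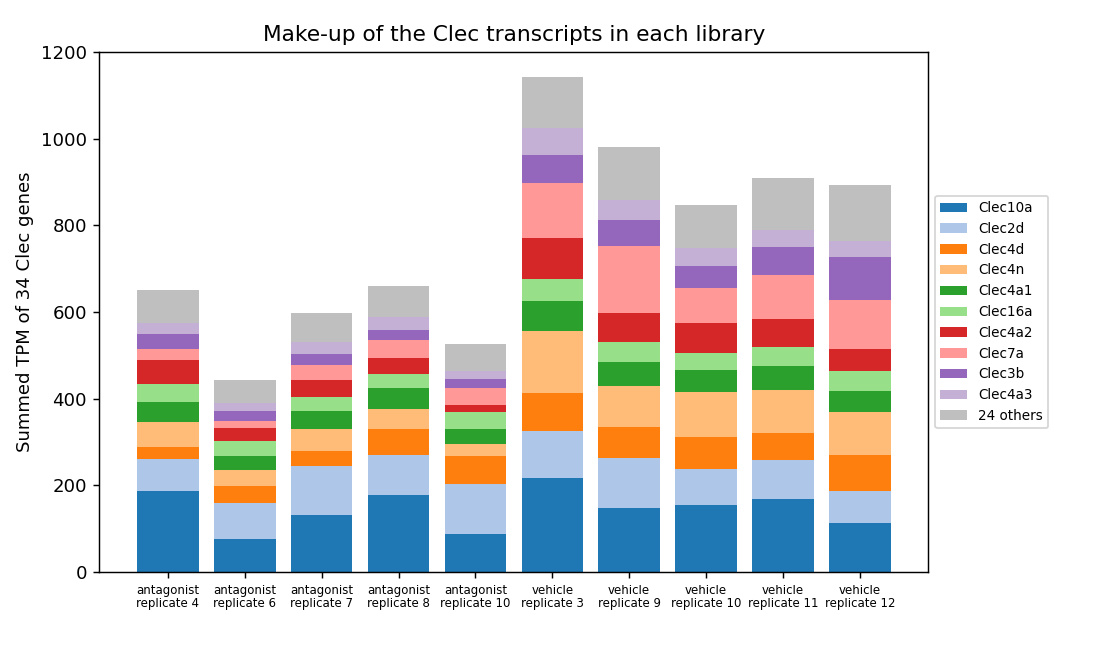
Summed TPM of the 34 Clec genes in each library, stacked by the 10 genes with the highest mean level in antagonist ears and the 24 others together. The antagonist bars reach 444 to 660 TPM and the vehicle bars 847 to 1143 TPM, while the band of Clec2d is about as tall in both groups.

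All 5 tested activating receptors of myeloid cells fell, where 17.4% of all tested genes did. Clec7a (gene ID 56644), on chromosome 6 from 129461591 to 129472785 (build GRCm38), carries its own tyrosine motif and recognises fungal β-glucans. It had 26.4, 16.8, 34.8, 40.3 and 38.4 TPM in antagonist libraries, against 127, 156, 79.4, 102 and 113 TPM in vehicle libraries. All antagonist libraries were low, and the highest of them stood well below the lowest vehicle library. On the log2 scale the change was −1.86 ± 0.23 (SE, adjusted p = 0.000826 by edgeR) and stayed between −1.70 and −1.97 without any single library.

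Clec4n, the mannan receptor Dectin-2, pairs with FcRγ. It had 58.0, 36.2, 49.9, 46.4 and 27.6 TPM in antagonist libraries, against 142, 96.0, 102, 99.3 and 99.96 TPM in vehicle libraries. Vehicle replicate 3 stood above the other 4 vehicle libraries, which lay close together, and the groups did not overlap. Its log2 fold change was −1.30 ± 0.19 (SE, adjusted p = 0.00141 by edgeR).

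Clec4e, known as Mincle, senses mycobacterial glycolipids and the nuclear protein Sap130 released by dying cells. It had 6.19, 5.40, 3.94, 10.97 and 11.5 TPM in antagonist libraries, against 24.2, 22.4, 19.1, 15.3 and 18.04 TPM in vehicle libraries. Antagonist replicates 8 and 10 were the highest of their group and still below every vehicle library. This gave a log2 fold change of −1.38 ± 0.27 (SE, adjusted p = 0.00362 by edgeR).

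Clec4d, the partner of Mincle, was the least changed of the activating receptors. It had 27.9, 40.3, 35.2, 59.9 and 65.4 TPM in antagonist libraries, against 88.6, 70.1, 74.5, 61.99 and 83.3 TPM in vehicle libraries. Antagonist replicates 8 and 10 were again the highest of their group, and replicate 10 exceeded the lowest vehicle library. The log2 fold change of −0.72 ± 0.22 (SE) had an adjusted p of 0.0274 by edgeR. Its call was lost on leaving out antagonist replicate 6 or 7 (adjusted p of 0.0625 and 0.0608 by edgeR) or vehicle replicate 3, 10 or 12 (0.0686, 0.0502 and 0.0557). Clec5a (MDL-1), a receptor coupled to DAP12, had 5.34, 3.06, 4.54, 3.84 and 3.8 TPM in antagonist libraries, against 8.67, 11.1, 7.35, 7.65 and 6.63 TPM in vehicle libraries. It averaged 4.12 ± 0.862 TPM in antagonist and 8.27 ± 1.73 TPM in vehicle ears without overlap, and fell by 1.00 ± 0.16 (log2, SE, adjusted p = 0.00158 by edgeR).

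**Figure D3:**
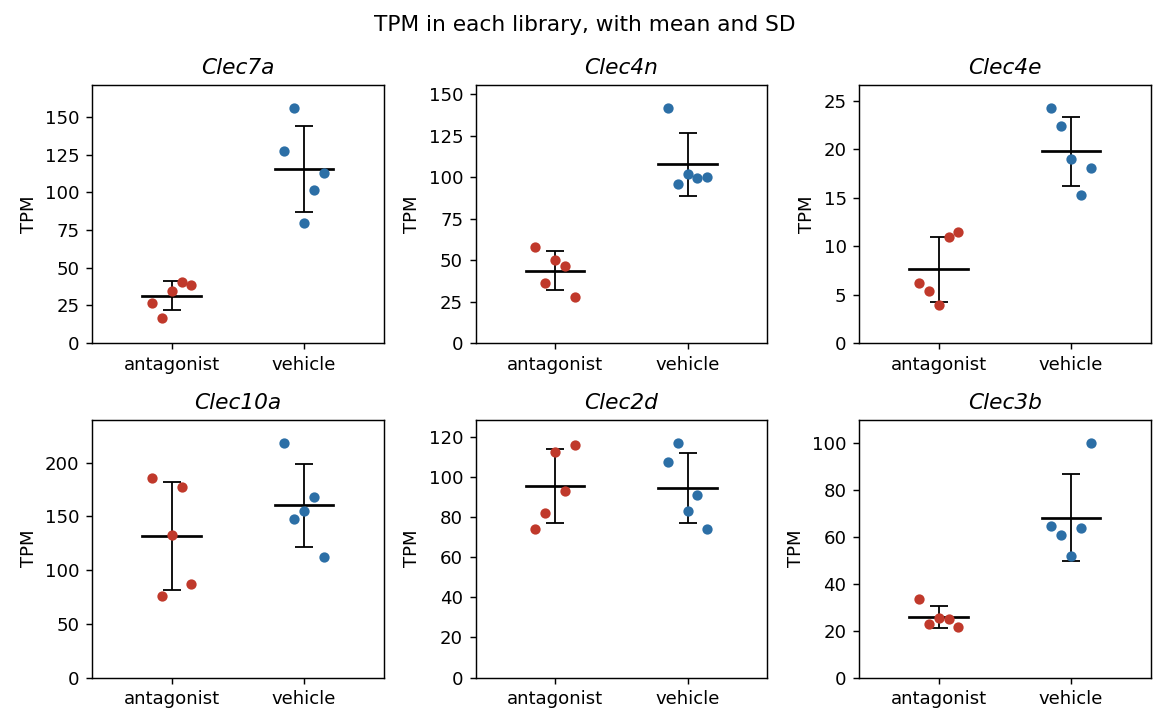
TPM of 6 Clec genes in each library, with the mean as a horizontal line and the SD as a bar (n = 5 each). The antagonist points of Clec7a, Clec4n, Clec4e and Clec3b lie below all vehicle points, while those of Clec10a and Clec2d overlap the vehicle points.

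The members' promoters were read for the core word of PU.1, an ETS factor that macrophages and neutrophils depend on. The word was chosen with earlier results of these data known, so its counts are description only. RefSeq promoters (GRCm38.p6) were found for 26 of the 34 members, and the 250 bases before the start of transcription were searched on both strands for GAGGAA. The word was in 10 of 14 fallen members with a promoter and in 0 of 4 tested members that did not pass. It was in 3 of 8 members that were not tested and in 23.1% of the promoters of all genes. No promoter was read for Clec10a, Clec1a and Clec2f, which did not pass, or for the fallen Clec4n, Clec3a and Clec3b. Among the 4 is Clec12b, whose promoter strand differs from the strand given with its counts. Of the fallen myeloid receptors 6 of 8 held it, with Clec4a2 and Clec4a3 the exceptions and none read for Clec4n, and so did 4 of 6 fallen members of other roles (Clec11a, Clec14a, Clec16a and Clec2l). A match is a description of letters and does not show binding. The promoters of 4 fallen receptors that hold the word, of Clec4a2, which fell and lacks it, and of Clec2d, which did not pass and lacks it, are shown with the word in capitals (GAGGAA, or TTCCTC for the opposite strand). They lie at chr6:129472786-129473035 (Clec7a, minus strand), chr6:123289872-123290121 (Clec4e, minus), chr6:40585806-40586055 (Clec5a, minus), chr6:129349994-129350243 (Clec12a, plus), chr6:123122440-123122689 (Clec4a2, plus) and chr6:129180365-129180614 (Clec2d, plus).
Clec7a: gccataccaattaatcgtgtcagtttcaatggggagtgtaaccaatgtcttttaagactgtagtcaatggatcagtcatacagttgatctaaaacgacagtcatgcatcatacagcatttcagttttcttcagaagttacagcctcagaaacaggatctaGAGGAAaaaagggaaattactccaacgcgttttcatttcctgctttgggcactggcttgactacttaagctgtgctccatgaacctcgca
Clec4e: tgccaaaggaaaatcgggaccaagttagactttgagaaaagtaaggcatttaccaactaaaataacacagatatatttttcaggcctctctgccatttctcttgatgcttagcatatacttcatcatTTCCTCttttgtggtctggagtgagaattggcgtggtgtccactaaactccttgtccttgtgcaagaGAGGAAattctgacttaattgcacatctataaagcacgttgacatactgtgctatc
Clec5a: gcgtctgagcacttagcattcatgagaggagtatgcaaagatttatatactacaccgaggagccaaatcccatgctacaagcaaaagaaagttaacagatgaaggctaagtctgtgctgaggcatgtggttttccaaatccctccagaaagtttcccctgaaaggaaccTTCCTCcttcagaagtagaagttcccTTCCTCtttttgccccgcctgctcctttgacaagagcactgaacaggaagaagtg
Clec12a: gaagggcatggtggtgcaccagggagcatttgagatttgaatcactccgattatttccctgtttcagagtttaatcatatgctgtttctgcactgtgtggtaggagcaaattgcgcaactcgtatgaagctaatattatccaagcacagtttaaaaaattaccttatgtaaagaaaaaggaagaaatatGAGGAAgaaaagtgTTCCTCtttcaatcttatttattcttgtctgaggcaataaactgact
Clec4a2: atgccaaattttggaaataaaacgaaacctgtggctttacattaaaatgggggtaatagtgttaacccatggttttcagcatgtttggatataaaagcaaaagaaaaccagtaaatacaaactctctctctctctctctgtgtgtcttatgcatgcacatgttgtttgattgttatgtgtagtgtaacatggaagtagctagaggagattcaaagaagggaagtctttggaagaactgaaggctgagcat
Clec2d: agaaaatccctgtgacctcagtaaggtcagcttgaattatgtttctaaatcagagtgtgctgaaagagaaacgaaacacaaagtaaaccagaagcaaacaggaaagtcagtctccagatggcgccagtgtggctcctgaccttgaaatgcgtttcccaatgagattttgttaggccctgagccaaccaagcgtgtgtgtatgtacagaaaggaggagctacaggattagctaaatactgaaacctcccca

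The word appeared once before Clec7a and at 2 places before each of Clec4e, Clec5a and Clec12a. Before Clec12a the 2 matches lay on opposite strands, from −61 to −56 and from −47 to −42 relative to the start. Before Clec5a both lay on the opposite strand, from −81 to −76 and from −55 to −50. Other words searched were TTGCNNAA (C/EBP), TGANTCA (AP-1), TGACGTCA (CRE) and an ETS-IRF composite word, which can overlap the PU.1 word. The C/EBP word was in 4 and the AP-1 word in 2 of the 14 fallen members, against 9.55% and 6.85% of all promoters. The composite was in 3 of the 14, against 2.38% of all promoters, and the CRE in 0, against 1.599%. Of the 4 tested members with a promoter that did not pass, 1 (Clec2g) held the AP-1 word. In these 4 the C/EBP, composite and CRE words were in 0. Of the members that were not tested, Clec18a and Clec2h held the AP-1 word. The composite word stood before Clec7a, Clec4a1 and Clec2i.

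Of the 5 tested inhibitory receptors and their relatives 4 fell, where 17.4% of all tested genes did. Clec4a2 (DCIR) is a dendritic cell receptor with an inhibitory motif. It had 54.8, 30.4, 38.3, 36.5 and 16.7 TPM in antagonist libraries, against 94.7, 65.5, 69.6, 65.4 and 50.6 TPM in vehicle libraries. Antagonist replicate 4 exceeded vehicle replicate 12, and every other antagonist library was below all vehicle libraries. The log2 fold change was −1.01 ± 0.26 (SE, adjusted p = 0.0132 by edgeR).

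Its relative Clec4a3 had 26.6, 18.7, 27.9, 29.9 and 17.4 TPM in antagonist libraries, against 63.5, 44.6, 41.96, 40.1 and 36.8 TPM in vehicle libraries. For Clec4a1 the values were 46.9, 33.1, 41.03, 47.9 and 33.8 TPM in antagonist libraries, against 68.7, 54.9, 51.6, 56.1 and 48.7 TPM in vehicle libraries. In both genes every antagonist library was below every vehicle library. Clec4a3 and Clec4a1 fell by 0.89 ± 0.19 and 0.46 ± 0.13 (log2, SE), with adjusted p of 0.00605 and 0.0181 by edgeR. Clec12a (MICL), an inhibitory receptor that senses uric acid crystals, had 4.5, 3.01, 5.46, 4.43 and 3.42 TPM in antagonist libraries, against 10.4, 16.7, 6.57, 13.6 and 6.6 TPM in vehicle libraries. It averaged 4.16 ± 0.968 TPM in antagonist and 10.8 ± 4.43 TPM in vehicle ears (SD, n = 5 each). Its log2 fold change was −1.30 ± 0.28 (SE, adjusted p = 0.00579 by edgeR), and the vehicle values were spread while the groups did not overlap. Clec12b, an inhibitory receptor of low level, had 1.20 to 4.14 TPM in antagonist and 2.22 to 3.57 TPM in vehicle libraries and did not pass (adjusted p = 0.668 by edgeR). The table places Clec12b from 129375513 to 129427634 on the plus strand of chromosome 6, across Clec1b and Clec9a, while RefSeq's promoter lies on the minus strand, so its counts are uncertain.

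The 2 tested Clec receptors known for uptake, Clec10a and Clec9a, did not pass. Clec10a had 186, 76.2, 132, 177 and 87.4 TPM in antagonist libraries, against 218, 147, 155, 168 and 113 TPM in vehicle libraries. The antagonist libraries fell into 2 low values, replicates 6 and 10, and 3 within the range of the vehicle libraries. The log2 fold change was −0.28 ± 0.25 (SE, adjusted p = 0.407 by edgeR). Clec10a shares 8.49% of its 50-base words with Mgl2, so reads of the pair may have been split. Mgl2, a lectin of dermal dendritic cells and a neighbour in sequence, fell by 1.34 ± 0.32 (log2, SE, adjusted p = 0.00905 by edgeR), and antagonist replicate 4 at 68.4 TPM overlapped the vehicle range of 64.4 to 105.9 TPM. The ratio of Clec10a to Mgl2 TPM was 2.72 to 7.11 in antagonist and 1.38 to 2.39 in vehicle libraries, a ratio chosen after the values were seen.

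Clec9a (DNGR-1), the receptor by which cross-presenting dendritic cells sense the actin of dead cells, was scarce. It had 20 to 38 counts per antagonist library and 19 to 33 per vehicle library, with a log2 fold change of 0.091 ± 0.23 (SE, adjusted p = 0.791 by edgeR). Clec4f, a receptor of liver macrophages, was listed at 0 in every library. Clec4g, a lectin of liver sinusoids, had 0 to 4 counts in antagonist and 1 to 11 counts in vehicle libraries and was not tested. The table's strand and ends of Clec4g differ from RefSeq's, so its counts are uncertain.

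The Clec2 group divided. Clec2d (Clr-b), which engages the inhibitory receptor Klrb1b, was the most abundant of the group. It had 73.9, 82.1, 112, 92.9 and 116 TPM in antagonist libraries, against 107, 117, 83.2, 91.1 and 74.2 TPM in vehicle libraries. The groups covered the same range. The log2 fold change of 0.035 ± 0.16 (SE, adjusted p = 0.881 by edgeR) turned negative without vehicle replicate 12 (−0.030), antagonist replicate 7 (−0.047) or antagonist replicate 10 (−0.031) and with the cartilage covariate (−0.42). Clec2f and Clec2g, at 11.4 ± 2.05 and 11.02 ± 1.52 TPM in antagonist and 9.03 ± 1.29 and 11.3 ± 2.62 TPM in vehicle ears (SD, n = 5 each), did not pass either.

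The falls were in scarce members. Clec2i (Clr-g) had 0.47, 0.26, 0.6, 0.38 and 0.54 TPM in antagonist libraries, against 1.1, 0.96, 1.3, 1.2 and 1 TPM in vehicle libraries. The groups did not overlap, and the log2 fold change was −1.45 ± 0.21 (SE, adjusted p = 0.00138 by edgeR). Clec2e had 0.26, 0.07, 0.42, 0.33 and 0.49 TPM in antagonist libraries, against 0.8, 1.04, 0.96, 0.88 and 0.59 TPM in vehicle libraries, again without overlap. Clec2e, with 2 to 13 counts per antagonist and 16 to 28 per vehicle library, fell by 1.416 ± 0.35 (log2, SE, adjusted p = 0.011 by edgeR), and a filter of 1 CPM in 5 libraries removed it. Clec2l averaged 1.05 ± 0.255 TPM in antagonist and 1.64 ± 0.206 TPM in vehicle ears with overlap (SD, n = 5 each). Clec2l fell by 0.63 ± 0.20 (log2, SE, adjusted p = 0.0325 by edgeR), at 13 to 24 counts per antagonist and 24 to 34 per vehicle library. It lost its call under DESeq2 (adjusted p = 0.0584) and, with an adjusted p of 0.0515 to 0.0787 by edgeR, without any one of vehicle replicates 10, 11 and 12 or antagonist replicates 4, 6, 7 and 10. Clec2h, Clec2j and Clec2m were not tested. Clec2h had 0.87 to 10.4 counts in antagonist and 1.76 to 6.39 counts in vehicle libraries, and Clec2j at most 1.05 counts in any library. Clec2m was at 0 in all antagonist libraries and at 1 to 3 counts in vehicle libraries, which is at the limit of detection. With no filter on low counts Clec2m was nonetheless called lower (adjusted p = 0.0174 by edgeR), with no fold given because both groups lie at or under 3 counts.

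Among endothelial and platelet lectins, Clec14a had 8.71, 5.36, 7.65, 7.23 and 6.33 TPM in antagonist libraries, against 10.7, 10.4, 9.84, 9.82 and 8.27 TPM in vehicle libraries. It fell by 0.46 ± 0.12 (log2, SE, adjusted p = 0.0124 by edgeR), at 7.06 ± 1.28 TPM in antagonist and 9.81 ± 0.938 TPM in vehicle ears with overlap (SD, n = 5 each). Clec14a is an endothelial protein that binds multimerin 2 (Mmrn2). Mmrn2 did not pass, with a log2 fold change of −0.029 ± 0.11 (SE, adjusted p = 0.858 by edgeR). Of 10 endothelial markers 2 fell and 2 rose, near the shares of all tested genes (17.4% lower and 16.7% higher). These markers summed to 245 to 290 TPM in antagonist and 245 to 280 TPM in vehicle libraries. Clec1a, an endothelial and myeloid receptor for melanin, stood at 2.10 ± 0.352 TPM in antagonist and 2.10 ± 0.354 TPM in vehicle ears (SD, n = 5 each; adjusted p = 0.966 by edgeR). Clec1b, the podoplanin receptor of platelets, had 4 to 11 counts in antagonist and 3 to 7 in vehicle libraries and was not tested. Its ligand podoplanin (Pdpn), by contrast, averaged 48.7 ± 9.74 TPM in antagonist and 83.5 ± 14.0 TPM in vehicle ears and fell by 0.77 ± 0.15 (log2, SE, adjusted p = 0.00345 by edgeR).

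All 3 tested secreted lectins fell, where 17.4% of all tested genes did. Clec3b (tetranectin, chromosome 9 from 123150946 to 123157432), a plasminogen-binding protein of plasma and matrix, had the smallest adjusted p of the family (0.000752 by edgeR). It had 33.6, 22.8, 25.5, 25.0 and 21.5 TPM in antagonist libraries, against 64.7, 61.0, 51.9, 63.9 and 100.01 TPM in vehicle libraries. Vehicle replicate 12 was far above its group, and all antagonist libraries lay below all vehicle libraries. The log2 fold change was −1.40 ± 0.17 (SE), and −1.21 was the smallest fall with 1 library left out.

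Clec3a had 8.76, 3.02, 5.90, 3.98 and 1.97 TPM in antagonist libraries, against 14.8, 18.9, 12.4, 19.7 and 32.4 TPM in vehicle libraries. Antagonist replicate 4 was the highest of its group and vehicle replicate 12 of the other. The same libraries were highest for Clec3b and Clec11a and, outside the family, for the vimentin gene Vim. These libraries also had the highest cartilage score of their groups, and the part of cartilage was not tested. The log2 fold change was −2.04 ± 0.36 (SE, adjusted p = 0.00271 by edgeR), and −0.37 ± 0.28 (SE) with the cartilage covariate. Of 17 tested cartilage markers 13 fell and 0 rose, with a median log2 fold change of −1.58. Over all tested genes 17.4% fell and 16.7% rose. The cartilage markers summed to 356 to 642 TPM in antagonist and 607 to 1057 TPM in vehicle libraries. Much of that sum was Chad, at 331 ± 76.2 TPM in antagonist and 387 ± 98.4 TPM in vehicle ears (SD, n = 5 each). Chad did not pass (adjusted p = 0.420 by edgeR). Clec11a (osteolectin), a bone growth factor that binds integrin α11, had 9.75, 4.93, 6.45, 4.76 and 4.63 TPM in antagonist libraries, against 16.3, 12.8, 12.5, 17.03 and 20.3 TPM in vehicle libraries. It averaged 6.10 ± 2.17 TPM in antagonist and 15.8 ± 3.26 TPM in vehicle ears without overlap (SD, n = 5 each) and fell by 1.36 ± 0.21 (log2, SE, adjusted p = 0.00152 by edgeR). The integrin gene Itga11 fell as well, by 0.95 ± 0.28 (log2, SE, adjusted p = 0.0243 by edgeR). Of 10 fibroblast markers 7 fell and 0 rose, with sums of 2620 to 4073 TPM in antagonist and 5901 to 8176 TPM in vehicle libraries, and their part in these falls was not tested. Clec18a, with 1.76 to 15.8 counts in antagonist and 1.33 to 6.31 counts in vehicle libraries, was not tested.

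Clec16a had 41.6, 33.4, 34.2, 33.9 and 39.7 TPM in antagonist libraries, against 51.2, 46.5, 39.5, 42.4 and 44.9 TPM in vehicle libraries. It fell by 0.24 ± 0.076 (log2, SE, adjusted p = 0.0288 by edgeR), the smallest called change among members, at 36.6 ± 3.79 TPM in antagonist and 44.9 ± 4.40 TPM in vehicle ears with overlap (SD, n = 5 each). It missed the threshold by edgeR, with adjusted p of 0.0505 to 0.0779, without any one of vehicle replicates 3, 9 and 12 or antagonist replicates 6, 7 and 8.

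**Figure D4:**
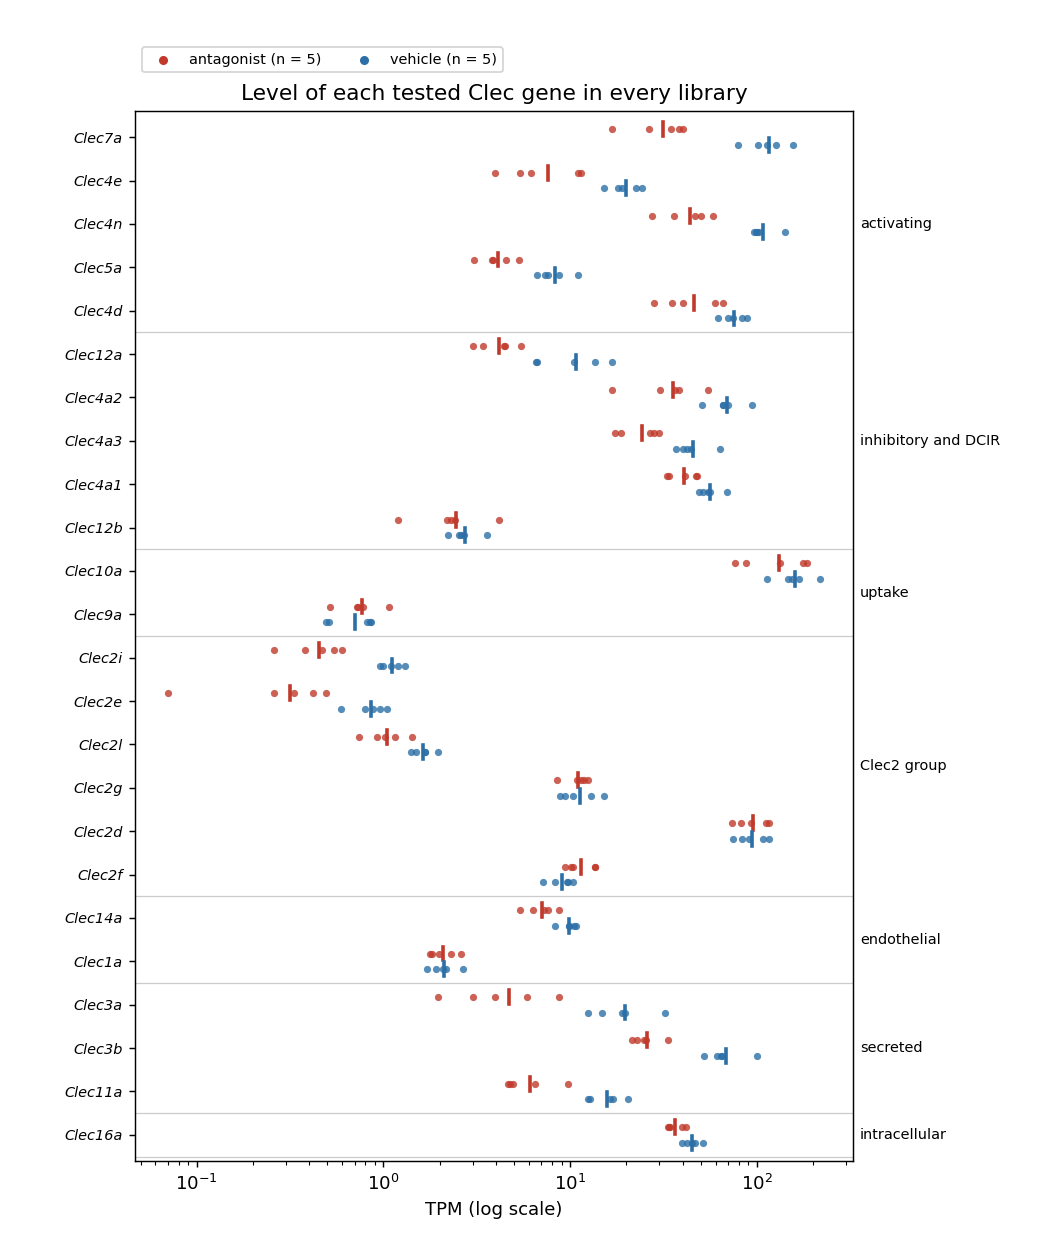
TPM of each tested Clec gene in every library on a log axis, antagonist above vehicle, with a bar at each group's mean and genes grouped by role. Levels span from 0.07 TPM for Clec2e in 1 antagonist library to 218 TPM for Clec10a in 1 vehicle library.

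The 10 members without a test had at most 24.02 counts in any library. Besides those named they were Clec4a4, Clec4b1 and Clec4b2. Clec4a4, a relative of DCIR, had 1.19 to 8.58 counts in antagonist and 4.82 to 8.61 counts in vehicle libraries, and Clec4b2 0 to 5 and 0 to 3 counts in antagonist and vehicle libraries. Clec4b1 (DCAR), an FcRγ-coupled receptor, had 2.62 to 9.59 counts in antagonist and 10.4 to 24.02 counts in vehicle libraries. With no filter on low counts its log2 fold change was −1.53 ± 0.37 (SE, adjusted p = 0.0113 by edgeR), and DESeq2 also called it (adjusted p = 0.00376).

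The family is clustered. On chromosome 6 lie 26 of the 34 genes. Of these, 9 genes of the Clec4 group lie between 122921848 and 123289871, and 14 genes from Clec2j to Clec7a lie between 128655105 and 129472785. All 6 tested genes of the Clec4 cluster fell, where 17.4% of all tested genes did, with a median log2 fold change of −0.95. In the second cluster 4 of 10 tested genes fell and 6 did not pass, with a median of −0.089. There Clec7a, the steepest fall of the cluster, neighbours Clec1a, whose group means were level. Near copies can share reads: 15.7% of the 50-base words of Clec4a4 are in Clec4a2, and 8.68% of those of Clec4b1, while the words of Clec7a, Clec4e, Clec4d, Clec5a, Clec3a and Clec3b are in no other transcript of GENCODE M21.

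Leukocyte markers moved with the myeloid receptors. Of 8 pan-leukocyte genes, among them the phosphatase Ptprc and the cytoskeletal Coro1a, 7 fell and 0 rose, with a median log2 fold change of −0.99 and sums of 669 to 926 TPM in antagonist and 1229 to 1681 TPM in vehicle libraries. Of 16 monocyte and macrophage markers 7 fell and 1 rose (2990 to 4354 TPM in antagonist against 3786 to 5848 TPM in vehicle libraries). Of 10 tested neutrophil markers 7 fell and 0 rose (880 to 2352 TPM in antagonist against 2134 to 4036 TPM in vehicle), with Mpo near 0. Of 13 dendritic cell markers 7 fell and 0 rose (350.05 to 1000.02 TPM in antagonist against 1220 to 1882.5 TPM in vehicle). Of 5 Langerhans cell markers 3 fell and 1 rose (576 to 1182 TPM in antagonist against 1211 to 1881 TPM in vehicle). Of 9 tested T and NK cell markers 7 fell and 0 rose (20.9 to 42.3 TPM in antagonist against 70.3 to 116.5 TPM in vehicle). Of 4 tested platelet markers 1 fell and 0 rose, and of 5 lymphatic markers 0 fell and 2 rose. Over all tested genes 17.4% fell and 16.7% rose.

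Each of the 24 tested members was also expressed per 100 TPM of the pan-leukocyte sum, a description chosen after the values were seen and given without a test. Clec7a stood at 2.51 to 4.56 in antagonist libraries and 5.90 to 9.76 in vehicle libraries. Clec7a and Clec3b were the 2 members whose ratio was lower without overlap, as for 0.501% of all tested genes. Clec2d, Clec2f and Clec16a were higher without overlap, as for 66.8% of all tested genes, and 19 members overlapped. The ratio of Clec4n overlapped, at 2.98 to 6.26 in antagonist and 6.02 to 8.42 in vehicle libraries, and so did that of Clec4e, at 0.482 to 1.24 in antagonist and 1.06 to 1.47 in vehicle libraries.

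**Figure D5:**
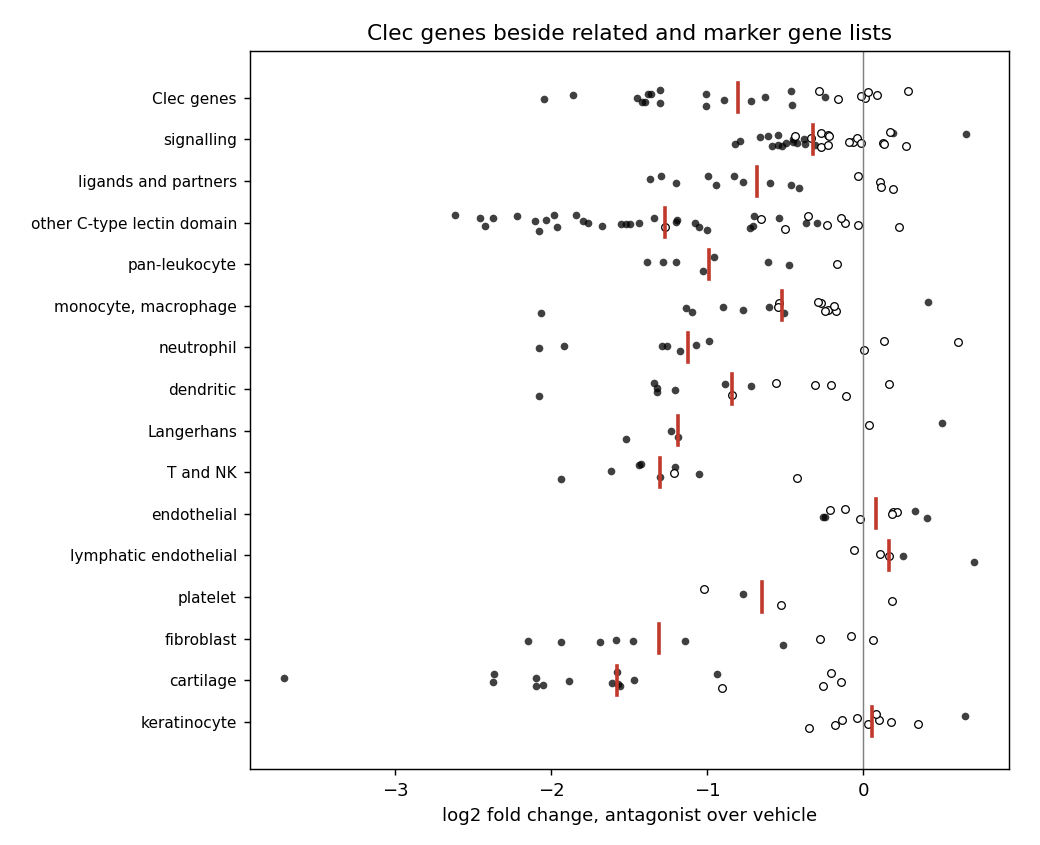
Log2 fold changes of antagonist over vehicle for the tested Clec genes, for related gene lists and for cell type markers. Each point is a gene, filled at an adjusted p under 0.05 by edgeR, and the red bar is the list's median, −0.80 for Clec genes, −0.99 for pan-leukocyte genes and 0.084 for endothelial genes.

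Signalling genes downstream of the receptors shifted less. Of 32 tested genes 15 fell and 2 rose, with a median log2 fold change of −0.32, and 0 fell by a factor of 2. Over all tested genes 17.4% fell, 16.7% rose and 3.93% fell at least 2-fold. Syk, the kinase the activating receptors share, averaged 12.9 ± 2.13 TPM in antagonist and 22.9 ± 3.11 TPM in vehicle ears without overlap (SD, n = 5 each). It fell by 0.82 ± 0.12 (log2, SE, adjusted p = 0.00138 by edgeR). Of the adaptor chains, Tyrobp fell by 0.79 ± 0.13 and Fcer1g by 0.58 ± 0.16 (log2, SE), with adjusted p of 0.0022 and 0.0157 by edgeR. Card9, which carries the signal on from Syk, did not pass (−0.44 ± 0.16, SE, adjusted p = 0.0571 by edgeR). Card9 passed under DESeq2 (adjusted p = 0.041), limma-voom (0.0392) and edgeR without vehicle replicate 12 (0.0276), antagonist replicate 4 (0.0421) or antagonist replicate 8 (0.0364). Its partner Bcl10 fell by 0.37 ± 0.050 (log2, SE, adjusted p = 0.00105).

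Dok1, an adaptor that restrains tyrosine kinase signals, fell by 0.61 ± 0.078, and the NF-κB subunit Relb by 0.54 ± 0.091 (log2, SE). Among the risers was Trim62, a ubiquitin ligase that acts on Card9. Trim62 averaged 17.95 ± 3.13 TPM in antagonist and 11.4 ± 1.98 TPM in vehicle ears without overlap, and rose by 0.66 ± 0.14 (log2, SE, adjusted p = 0.00495 by edgeR).

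Of 14 tested ligands and partner receptors 10 fell and 0 rose, where 17.4% of all tested genes fell and 16.7% rose. Klrb1b, the natural killer receptor of Clec2d, averaged 4.52 ± 1.04 TPM in antagonist and 11.8 ± 2.61 TPM in vehicle ears without overlap (SD, n = 5 each). It fell by 1.37 ± 0.19 (log2, SE, adjusted p = 0.00118 by edgeR). Vim, the intermediate filament vimentin, Plat, the tissue plasminogen activator, and Itgb1, the integrin β1 chain, fell by 0.83 ± 0.13, 0.99 ± 0.16 and 0.46 ± 0.073 (log2, SE). Of 39 tested genes with a C-type lectin domain and another name 30 fell and 0 rose, with a median log2 fold change of −1.27 against −0.80 for the Clec genes. The smallest p were those of Sele, the endothelial selectin, the proteoglycan Vcan, the oxidised lipoprotein receptor Olr1 and the hyaluronan receptor Layn, with log2 fold changes of −1.98 ± 0.16, −1.56 ± 0.17, −2.43 ± 0.31 and −0.70 ± 0.097 (SE). Cd207, the langerin of Langerhans cells, fell by 1.52 ± 0.30 (log2, SE, adjusted p = 0.00426 by edgeR). Mrc1, the macrophage mannose receptor, did not pass (−0.50 ± 0.22, SE, adjusted p = 0.0919 by edgeR), with 101 to 210 TPM in antagonist and 124 to 261 TPM in vehicle libraries.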

How the data were processed

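Poly(A) RNA of mouse ear skin was sequenced as DNA nanoballs, per the labels' protocols, which mention no step that marks the strand. Per the submitters' processing notes HISAT was among the tools. Its version, the counter and the build were not given in the sources used here. The deposited table holds expected counts (estimated read counts), TPM and FPKM per library and their group means, per the file headers. The authors also deposited log2 fold changes with DESeq2 p-values and q-values, per the file headers. These and the FPKM were not used for results. There were 0 unmatched per-library columns, and 1 emptied line was not analysed here. Of 34 members 33 matched a GENCODE M21 gene (GRCm38) through its Ensembl identifier and all 33 overlapped it, so positions are read as 1-based on GRCm38.

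Rounded expected counts were filtered with filterByExpr (about 10 counts in enough libraries and 15 in total), which left 15174 genes. They were scaled with TMM factors (0.972 to 1.04) and tested with edgeR 4.0.16 in R 4.3.3 (quasi-likelihood, group as the single term, threshold 0.05 on the Benjamini-Hochberg adjusted p). Standard errors were taken as log2 fold change over the root of F. Totals of 20183024 to 20606007 counts leave counting error small beside the 16.3% common biological variation, except for members of few counts. The code was tested on simulated data. No pair of libraries was closer than 21.5 times sampling noise, so none was counted as a copy. The cartilage score is the mean log2 CPM of 17 genes with a prior count of 2. Members, roles, gene lists and promoter words were chosen with earlier results of these data known. All members are accounted for, and from the 3 related lists the 4 called genes of smallest p in each direction and 8 preset genes were named, except 1 gene that is not reported here. Itga11 and Mmrn2 were named as partners of members after their values were seen. Alternatives covered RLE and upper-quartile factors, no filter and a filter of 1 CPM in 5 libraries, DESeq2 1.42.0, limma-voom with sample weights and limma-trend (limma 3.58.1) on log2(TPM + 1) and log2(TPM + 0.1). A 2-fold threshold, the cartilage covariate and each library left out were also tried. Protein sequences were not used here.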

Additional observations from a re-analysis of the deposited data

Results flagged for a closer look

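In 6 of 90 groups of 5 libraries looked at in TPM, 1 library stood apart by Dixon's criterion for 5 values (0.71 of the range), and chance alone gives about 1 in 20. Among vehicle libraries Clec3b was at 100.01 TPM in replicate 12, against 51.9 to 64.7 TPM in the others. Clec4n was at 141.6 TPM in vehicle replicate 3, against 96.0 to 102 TPM in the others. The kinase gene Syk was at 17.49 TPM in vehicle replicate 12, against 23.2 to 25.0 TPM. Among antagonist libraries Fcer1g was at 370.99 TPM in replicate 6, against 518 to 560.5 TPM. In antagonist replicate 4 both Mgl2, at 68.36 TPM against 18.3 to 30.4 TPM, and Mrc1, at 209.74 TPM against 101 to 129 TPM, were above the other 4. Without antagonist replicate 4 the log2 fold change of Mgl2 was −1.75 and that of Mrc1 −0.68, and Mrc1 then passed the threshold (adjusted p = 0.0186 by edgeR). Mrc1 also passed without vehicle replicate 12 (log2 fold change −0.61, adjusted p = 0.0425 by edgeR).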

How the results depend on the processing

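Of the 24 tested members 17 fell, and 17 of the 24 also did with RLE or upper-quartile factors, limma-voom, both TPM fits and no filter, which added 2 members outside the 24 for a total of 19. With DESeq2 16 of the 24 fell, and Clec4b1 made 17. The count was 16 with the stricter filter, 11 with the 2-fold threshold and 0 with the cartilage covariate. With 1 library left out it was 15 to 17 in all and 14 to 16 of the 24. No member rose in any of these. With the covariate the counts of falling signalling, partner and other C-type lectin domain genes were also 0. Among signalling genes 15 fell, 0 of them by 2-fold, and 12 to 18 with 1 library left out. The 2 that rose became 1 with upper-quartile factors, no filter or either TPM fit, 0 with the covariate or the 2-fold threshold and 1 to 4 with 1 library left out. Among partners 10 fell, 3 by 2-fold, and 8 to 11 with 1 library left out; among other lectin domain genes 30 fell, and 27 to 33. With the covariate the log2 fold change turned to 0.34 for Clec10a, 0.52 for Clec12b, −0.11 for Clec1a, −0.42 for Clec2d, 0.43 for Clec2g and −0.70 for Clec9a, none of which passed at first. Clec1a was −0.0018 with upper-quartile factors, −0.0037 and −0.0052 with TPM pseudocounts of 1 and 0.1, and Clec2g was 0.037 with limma-voom. With 1 library left out Clec12b ran from −0.41 to 0.018, Clec1a from −0.076 to 0.12, Clec2d from −0.047 to 0.13, Clec2g from −0.10 to 0.12 and Clec9a from −0.043 to 0.20. The causes were not tested. Members near 10 counts a library are limited by depth. No paired analysis was possible because the groups share only 1 replicate number.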
